A study of Mus musculus with 12 samples.

Results

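The genes described here are the phospholipases A2 and the enzymes that turn arachidonate into prostanoids and leukotrienes. They were chosen by gene symbol: every protein-coding gene whose symbol begins with Pla2g or Alox, together with Ptgs1, Ptgs2, Ptges, Ptges2, Ptges3, Ptgds, Ptgis, Ptgr1, Ptgr2, Tbxas1, Hpgd, Lta4h and Ltc4s. The rule took 41 of the 39179 genes in the deposited table, and 30 of the 41 had a value of 4 or more in 6 or more libraries. That minimum was applied to the log2 values of both genotypes, so a gene could pass it through its level in 1 genotype alone. Of the genes with the same name stems, 2 were left out, since Pla2g2a is annotated as a polymorphic pseudogene, with a highest value of 2.45, and Pla2g10os as an antisense transcript.

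Prostate RNA was sequenced from paraquat-treated mice aged 4 months whose strain is given as a hybrid of 129/SvImJ and C57Bl/6J. Paraquat is a herbicide that cycles electrons to oxygen and is used to produce oxidative stress. Of the 12 libraries, 6 came from mice homozygous for a null allele of the gene under study, with no promoter, Cre driver or tissue restriction named in the labels, and 6 came from wild-type mice of the same age and strain. All 12 libraries were from treated mice, so no untreated tissue enters the comparison.

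Phospholipases A2 cut the fatty acid from the middle position of membrane phospholipids, and the cytosolic enzyme Pla2g4a is the main supplier of free arachidonate. The cyclooxygenases Ptgs1 and Ptgs2 convert arachidonate to prostaglandin H, which terminal synthases turn into prostaglandins, prostacyclin and thromboxane, while lipoxygenases turn arachidonate into hydroxy acids and, through Alox5, into leukotrienes. Ptgs1 is made in most tissues, Ptgs2 is the inducible enzyme of inflammation and growth, and the vesicular glands of sheep are a classical source of cyclooxygenase.

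The promoters of 3 genes are printed here because the results turn on them. Pla2g4f was higher in the null in both fits described below, Ptgs2 had the widest difference, and Ptgs1, the other cyclooxygenase, differed in the opposite direction. Each runs 5′ to 3′ on the gene's own strand, from 250 bases before the RefSeq start to 50 bases after it, in GRCm38.p6. They lie at chr2:120314116-120314415 on the minus strand for Pla2g4f, chr1:150099781-150100080 on the plus strand for Ptgs2 and chr2:36230176-36230475 on the plus strand for Ptgs1, and capitals mark the motif matches.
Pla2g4f: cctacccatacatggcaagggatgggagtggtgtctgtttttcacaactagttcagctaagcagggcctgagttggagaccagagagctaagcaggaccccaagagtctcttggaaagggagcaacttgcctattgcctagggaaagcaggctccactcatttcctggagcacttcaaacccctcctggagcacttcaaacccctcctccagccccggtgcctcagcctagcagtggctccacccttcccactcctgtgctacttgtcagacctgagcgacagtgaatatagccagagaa
Ptgs2: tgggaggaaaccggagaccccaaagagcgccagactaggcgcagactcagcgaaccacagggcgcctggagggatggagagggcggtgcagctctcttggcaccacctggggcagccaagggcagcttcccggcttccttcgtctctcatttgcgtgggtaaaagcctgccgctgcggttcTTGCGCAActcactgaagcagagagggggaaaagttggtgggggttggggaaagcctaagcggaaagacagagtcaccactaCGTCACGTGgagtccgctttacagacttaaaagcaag
Ptgs1: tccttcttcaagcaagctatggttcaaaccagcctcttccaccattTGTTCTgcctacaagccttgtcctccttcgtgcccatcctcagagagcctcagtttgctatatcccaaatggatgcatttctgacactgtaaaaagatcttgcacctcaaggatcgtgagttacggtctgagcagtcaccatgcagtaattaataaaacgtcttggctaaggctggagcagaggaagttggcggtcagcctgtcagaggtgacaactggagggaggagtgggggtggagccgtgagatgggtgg

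Each window was searched on both strands for 7 motifs. The E-box was written as CACGTG, the core of the cAMP response element as TGACG and the C/EBP palindrome as TTGCGCAA. The AP-1 site was written as TGANTCA, the core of the androgen response element as AGAACA, the sequence of the TATA motif as TATAAA and that of the nuclear factor Y motif as CCAAT. The Ptgs2 window held the C/EBP palindrome at position -69, counted from 1 at the RefSeq start with negative positions before it, and from positions 14 and 17 it held the minus-strand cAMP core CGTCA overlapping an E-box. The palindrome was present in 0.183% of 32851 mouse promoter windows of the same length, the E-box in 7.15% and the cAMP core in 20.8%. The Ptgs1 window held the androgen core on its minus strand, as TGTTCT at position -204, and 19.0% of all windows held that core on either strand. None of the searched letters occurred in the Pla2g4f window. The other shares were 13.6% for TATAAA, 7.81% for TGANTCA and 37.4% for CCAAT. Of the 41 genes, 34 had an entry among the RefSeq promoters.

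Depth, recovered from the highest values, was 14.8 to 21.7 M reads per library. Within each genotype, libraries 1 to 3 and libraries 4 to 6 formed sets, with a median absolute difference between libraries of 0.0776 to 0.141 within a set and 0.274 to 0.352 between the sets of a genotype. The labels do not say which libraries came from separate animals, so the p-values measure only the spread between these libraries, which may be technical. Each difference below, null minus wild type on the log2 scale, was therefore tested across the 12 libraries and again over the 4 set means, with limma and Benjamini-Hochberg adjustment over all 16197 genes that passed the minimum. "Rose" and "fell" are used only where both fits passed an adjusted p of 0.05. The libraries also differed in markers of neighbouring glands. All 7 seminal vesicle markers passed the minimum, and their summed level, in log2 units, was 21.40 to 21.42 in the null for libraries 1 to 3 and 16.83 to 16.85 for libraries 4 to 6, against 7.45 to 7.81 in wild-type libraries 1 to 3 and 5.75 to 5.93 in wild-type libraries 4 to 6. The 5 vas deferens and epididymis markers summed to 15.78 to 15.88 in null libraries 1 to 3, with 8.38 to 8.46 in null libraries 4 to 6, against 7.33 to 8.65 in wild type. Only 2 of those 5 passed the minimum, Lcn5 and Spag11b were near the floor in every library, and Crisp1 averaged 14.23 in null libraries 1 to 3 but 3.61 in null libraries 4 to 6. That order between the null sets was set by Svs2, Svs5 and Pate4 for the seminal vesicle and by Akr1b7 and Crisp1 for the ducts. Of the 7 seminal vesicle markers, 3 ran the other way, with Svs4 at a mean of 14.58 in null libraries 1 to 3 but 16.43 in null libraries 4 to 6, Svs3a at 11.78 but 13.65 and Svs3b at 11.38 but 11.65. The 10 prostate epithelium markers all passed and summed to 16.74 to 17.15 in the null, against 19.81 to 20.56 in wild type, a sum carried by the secretory genes Sbp and Pbsn. By set means, 5 of the 10 were lower in both null sets (Pbsn, Sbp, Msmb, Hoxb13 and Krt18), 3 were higher in both (Trp63, Krt5 and Cdh1) and Epcam and Krt8 overlapped.

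The fit to the 12 libraries called 24 of the 30 genes, with 12 of them higher in the null and 12 lower. Of all genes tested, 65.9% were called in that fit, 34.1% higher and 31.8% lower, so a call over the 12 libraries was common in these data. The counts by role and by list given below stand beside those shares. Leaving out null libraries 1 to 3 gave 18 of the 30, with 9 in each direction, where 54.2% of all genes were called, 26.9% higher and 27.2% lower. Over the set means 1 of the 30, Pla2g4f, was called and it was higher, where 4.09% of all genes were called, 2.15% higher and 1.93% lower. At an unadjusted p under 0.05 the set means gave 12 of the 30, 7 higher and 5 lower, where all genes gave 31.1%, 15.8% higher and 15.3% lower. The median difference was 0.33 over the 30 genes and 0.05 over all genes tested. With quantile normalization these medians were 0.03 and -0.04, and without null libraries 1 to 3 they were 0.12 and 0.02. With equal totals the median of the 30 genes was 0.65. When libraries were scaled to equal totals the median of all genes moved to 0.37, and the 30 genes then gave 17 higher and 6 lower over the 12 libraries, where 69.3% of all genes were called, 53.2% higher and 16.1% lower. The calls of Ltc4s, Pla2g6, Pla2g12a, Pla2g15, Ptges2 and Ptgis ended with that scaling, and those of Alox5, Pla2g4c, Pla2g4e and Pla2g12a ended with quantile normalization. In bulk tissue, fewer cells of a type and less RNA per cell cannot be told apart.

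**Figure D1:**
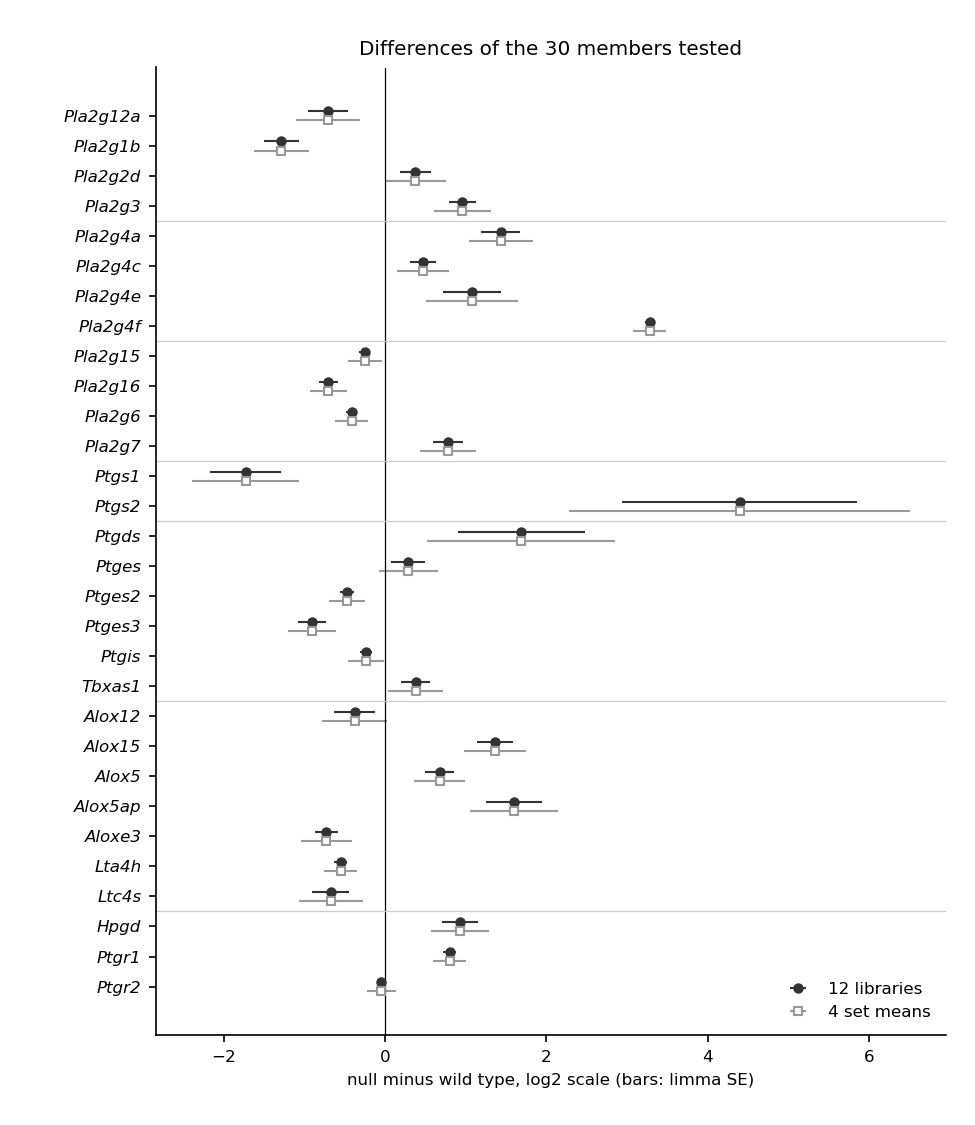
Differences, null minus wild type in log2 units, of the 30 genes that passed the minimum, grouped by role, with limma's standard errors from the 12 libraries and from the 4 set means. Pla2g4f stands at 3.28 with short bars in both fits, whereas Ptgs2 stands at 4.40 with the widest bars.

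The cytosolic phospholipases A2 were the role in which every tested gene was called higher over the 12 libraries, 4 of 4, with a median difference of 1.26. Of all genes tested, 34.1% were called higher in that fit. Pla2g4f, the zeta form of the family, rose by the widest margin of them. Its values were 10.26, 10.30 and 10.26 in null libraries 1 to 3 and 10.35, 10.24 and 10.25 in null libraries 4 to 6, against 7.11, 6.93 and 6.86 in wild-type libraries 1 to 3 and 7.09, 6.89 and 7.07 in wild-type libraries 4 to 6. All 6 null libraries lay above all 6 wild-type libraries, and the null sets were level with each other. The difference was 3.28, a 9.73-fold higher value in the null, with an SE of 0.06 over the 12 libraries (adjusted p = 2.41e-12) and 0.20 over the set means (adjusted p = 0.00558). It was 3.29 without null libraries 1 to 3 and 3.28 without null libraries 4 to 6. The part of the neighbouring glands in it was not tested.

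Pla2g4a, the calcium-activated enzyme that releases arachidonate for both branches, had values of 9.46, 9.26 and 9.17 in null libraries 1 to 3 and 8.40, 8.14 and 8.30 in null libraries 4 to 6, against 7.76, 7.65 and 7.51 in wild-type libraries 1 to 3 and 6.94, 7.06 and 7.19 in wild-type libraries 4 to 6. The genotypes did not overlap, and null libraries 1 to 3 were the highest. The difference was 1.44 (SE 0.24, adjusted p = 0.000218) across the 12 libraries and had an adjusted p of 0.0907 over the set means. It was 0.93 without null libraries 1 to 3. Pla2g4e, which in mouse makes N-acyl phospholipids, had values of 5.85, 5.58 and 6.05 in null libraries 1 to 3 and 3.95, 4.35 and 4.22 in null libraries 4 to 6, against 3.37 to 4.33 in wild type. Null libraries 1 to 3 stood alone, and null libraries 4 to 6 overlapped wild type. Its difference of 1.08 (SE 0.37, adjusted p = 0.0194) became 0.25 (adjusted p = 0.364) without null libraries 1 to 3. Pla2g4c, a membrane-bound form that needs no calcium, averaged 5.19 ± 0.09 in the null and 4.73 ± 0.35 in wild type (SD, n = 6 each), with overlapping libraries. Its difference of 0.47 (adjusted p = 0.0223) was no longer called without either null set or without wild-type libraries 1 to 3 (adjusted p = 0.0643 to 0.127). Pla2g4b and Pla2g4d did not pass the minimum, with highest values of 4.14 and 3.04.

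Of the 6 cytosolic genes, 4 are neighbours. Pla2g4b, Pla2g4e, Pla2g4d and Pla2g4f follow each other on chromosome 2 in GRCm38, with gaps of 123.4, 20.3 and 10.8 kb, and Pla2g4f occupies 120299957 to 120314165 on the minus strand. Pla2g4d, the nearest neighbour of Pla2g4f, averaged 2.33 ± 0.41 in the null and 2.10 ± 0.69 in wild type (SD, n = 6 each), which is at the floor of the table. Pla2g4a and Ptgs2 are neighbours on chromosome 1, 138.7 kb apart and transcribed away from each other.

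**Figure D2:**
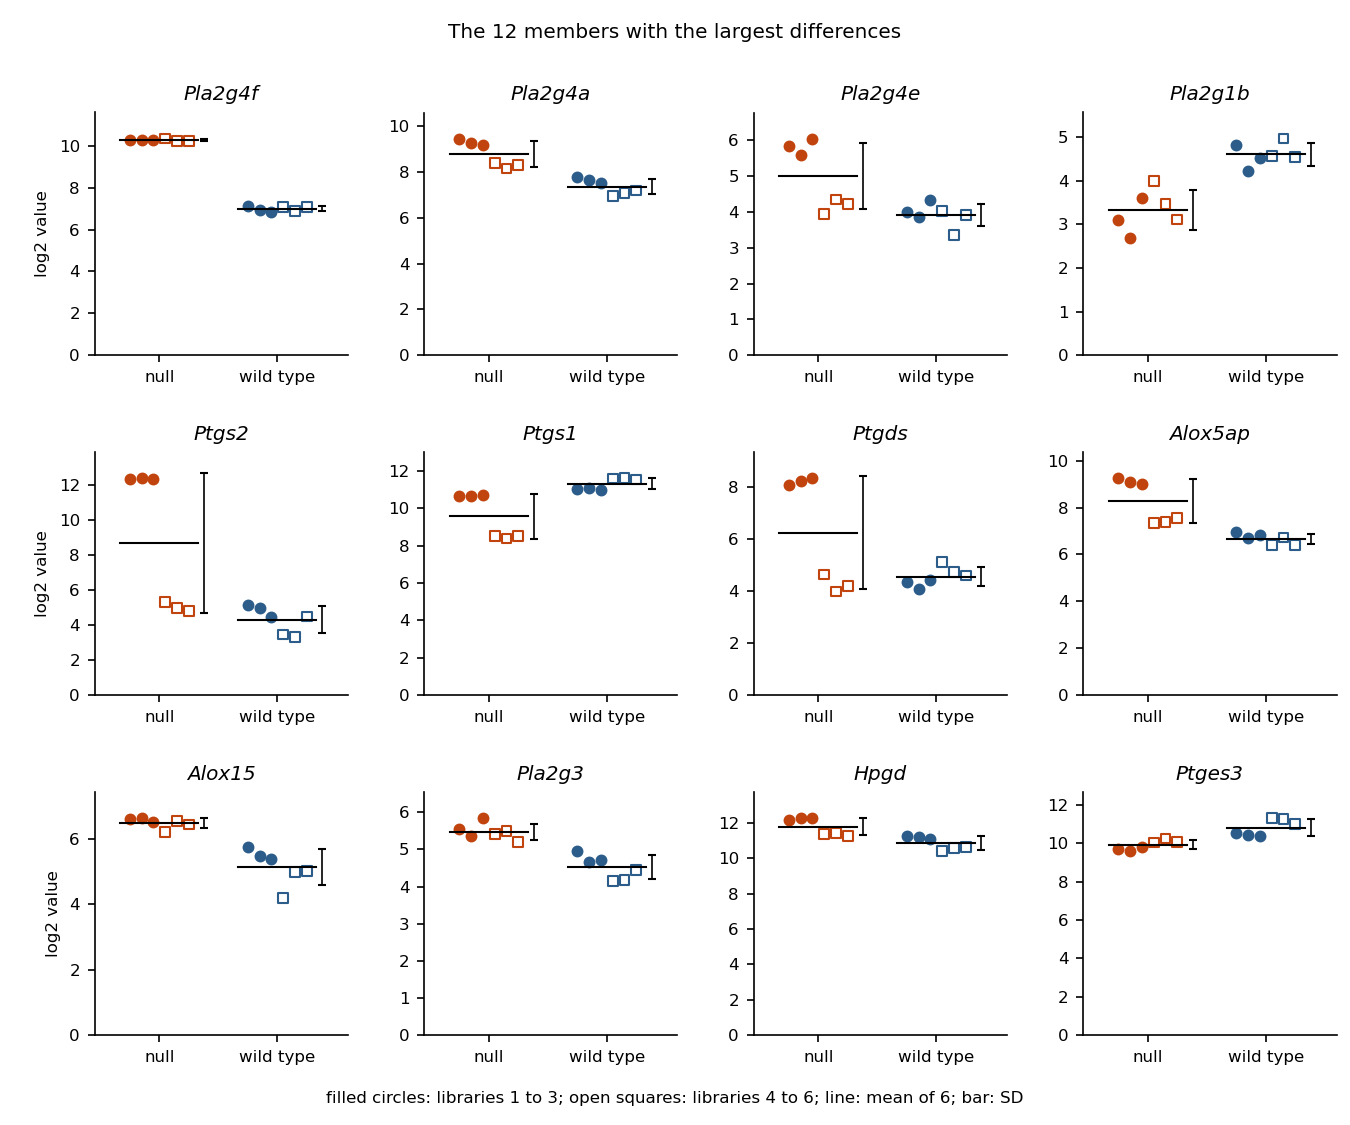
Deposited log2 values of the 12 genes with the widest differences, null at the left and wild type at the right of each panel, with circles for libraries 1 to 3, squares for libraries 4 to 6, a line at the mean and a bar of 1 SD (n = 6). The null libraries of Pla2g4f lie together at 10.24 to 10.35, while the null sets of Ptgs2, Ptgds, Ptgs1, Alox5ap, Pla2g4e and Pla2g4a differ by 1 or more.

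Among the secreted phospholipases A2, 4 of 10 passed the minimum, 1 was called higher, 2 lower and 1 not called over the 12 libraries. Pla2g12a, a secreted form with weak catalytic activity, was the most abundant phospholipase A2 per kilobase of transcript in both genotypes, at a log2 level per kilobase of 9.49 in the null and 10.20 in wild type. Its values ran from 10.41 to 10.50 in null libraries 1 to 3 and from 11.64 to 11.69 in null libraries 4 to 6, against 11.54 to 12.01 in wild type, so null libraries 1 to 3 alone lay below the wild-type range. The difference of -0.71 (SE 0.25, adjusted p = 0.0232) became -0.11 (adjusted p = 0.413) without those libraries, and leaving out any 1 of them also ended the call (adjusted p = 0.0532 to 0.0537).

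Pla2g3, related to the bee venom enzyme, had 5.54, 5.36 and 5.84 in null libraries 1 to 3 and 5.42, 5.50 and 5.21 in null libraries 4 to 6, against 4.97, 4.66 and 4.72 in wild-type libraries 1 to 3 and 4.15, 4.17 and 4.44 in wild-type libraries 4 to 6. The genotypes did not overlap, and the difference was 0.96 (SE 0.17; adjusted p = 0.000313 across the 12 libraries and 0.136 over the set means). Pla2g3 overlaps Inpp5j on the opposite strand by 4976 bases, and Inpp5j averaged 7.70 in the null and 7.28 in wild type. Whether counting used strand is unknown here, so reads of the overlap cannot be assigned. Pla2g1b, the digestive enzyme of the pancreas, had 3.09, 2.69 and 3.62 in null libraries 1 to 3 and 3.99, 3.47 and 3.11 in null libraries 4 to 6, against 4.83, 4.22 and 4.54 in wild-type libraries 1 to 3 and 4.57, 4.97 and 4.55 in wild-type libraries 4 to 6. All null libraries lay below all wild-type libraries. The gene passed the minimum through the 6 wild-type libraries alone, so a difference in that direction was built into its passing. The difference was -1.28 (SE 0.22), its test is not given for that reason, and it is counted among the 12 lower. Pla2g2d, a form of lymphoid tissue, had 6.27 to 6.84 in the null, with a median of 6.76, against 5.85 to 6.85 in wild type, with a median of 6.30. Its genotypes overlapped and it was not called (difference 0.38, adjusted p = 0.107). It was called without wild-type libraries 4 to 6 (0.80, adjusted p = 0.00120), without wild-type library 4 (adjusted p = 0.0413), with equal totals (0.69, adjusted p = 0.00390) and after removal of the length trend (0.55, adjusted p = 0.0171). It was -0.0390 without wild-type libraries 1 to 3.

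The 6 secreted forms below the minimum were Pla2g2c, Pla2g2e, Pla2g2f, Pla2g5, Pla2g10 and Pla2g12b, with highest values of 2.35, 3.19, 3.30, 4.35, 3.32 and 3.11. Near the minimum, Pla2g1b was just inside with 6 libraries at 4 or more, and Alox12e just outside with 3. Alox12e, an epidermal lipoxygenase of mouse, averaged 4.72 in the null and 3.13 in wild type, and the 3 libraries at 4 or more were null libraries 1 to 3, at 5.59 to 6.07.

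The 4 other phospholipases A2 all passed the minimum, with 1 called higher and 3 lower across the 12 libraries and none called over the set means. Pla2g7, which breaks down platelet-activating factor and is made by macrophages, had 8.38 to 8.42 in null libraries 1 to 3, with 7.52 to 7.60 in null libraries 4 to 6, against 6.88 to 7.41 in wild type. Both null sets lay above wild type, and the difference was 0.78 (SE 0.19, adjusted p = 0.00256). It was 0.36 without null libraries 1 to 3 and 1.20 without null libraries 4 to 6. The 6 macrophage markers, all of which passed the minimum, had a summed log2 level of 11.76 to 11.79 in null libraries 1 to 3, with 12.38 to 12.41 in null libraries 4 to 6, against 11.49 to 11.53 in wild type. By set means, Adgre1, Csf1r, Mrc1 and Lyz2 were higher in both null sets, but Cd68 and Cd14 were not. Cd68 averaged 7.16 in null libraries 1 to 3 and 8.06 in null libraries 4 to 6, against 7.22 and 7.49 in wild type. Cd14 averaged 7.51 and 7.77 in those null sets, against 7.57 and 8.08 in wild type. The part of macrophages in the Pla2g7 values was not tested. Pla2g16, an acyl-releasing enzyme abundant in fat tissue, differed by -0.70 (SE 0.12, adjusted p = 0.000211), at 9.77 to 10.27 in the null, against 10.54 to 11.03 in wild type. The 4 adipocyte markers, all of which passed, summed to 10.37 to 10.96 in the null, against 8.62 to 9.59 in wild type, and their part in the Pla2g16 values was not tested. Pla2g6, the calcium-independent housekeeping enzyme, differed by -0.41 (SE 0.07, adjusted p = 0.000181), with no overlap between genotypes. Pla2g15, the lysosomal enzyme, differed by -0.25 (SE 0.07, adjusted p = 0.00675), which turned to 0.06 when libraries were scaled to equal totals and was not called without wild-type libraries 4 to 6 (adjusted p = 0.0700).

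The cyclooxygenases differed in opposite directions. Ptgs2 had 12.35, 12.40 and 12.37 in null libraries 1 to 3, with 4.83 to 5.35 in null libraries 4 to 6, against 5.18, 4.98 and 4.49 in wild-type libraries 1 to 3 and 3.46, 3.31 and 4.49 in wild-type libraries 4 to 6. Null libraries 1 to 3 were thus far above every other library, and null libraries 4 to 6 overlapped wild-type libraries 1 to 3. The difference was 4.40 (SE 1.46, adjusted p = 0.0175) across the 12 libraries and had an adjusted p of 0.204 (SE 2.11) over the set means. It was 8.05 without null libraries 4 to 6 and 0.74 (adjusted p = 0.153) without null libraries 1 to 3, and leaving out wild-type libraries 1 to 3 or 4 to 6 also ended the call, with adjusted p = 0.0532 and 0.141. Within wild type, Ptgs2 was the 1 gene of the 30 whose sets differed by 1 or more, by 1.13. Ptgs2os, a transcript annotated beside Ptgs2, averaged 6.02 in null libraries 1 to 3 and lay between 1.29 and 3.50 in the other 9 libraries.

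Ptgs1 had 10.65, 10.67 and 10.69 in null libraries 1 to 3 and 8.52, 8.38 and 8.50 in null libraries 4 to 6, against 11.01, 11.07 and 10.995 in wild-type libraries 1 to 3 and 11.59, 11.59 and 11.54 in wild-type libraries 4 to 6. All null libraries lay below all wild-type libraries, with null libraries 4 to 6 the lowest. The difference was -1.73 (SE 0.45, adjusted p = 0.00418) across the 12 libraries and had an adjusted p of 0.144 (SE 0.66) over the set means. It was -2.83 without null libraries 1 to 3 and -0.63 (adjusted p = 0.00464) without null libraries 4 to 6, and leaving out wild-type libraries 4 to 6 gave -1.46 and ended the call (adjusted p = 0.0722). Seen across the sets, null libraries 1 to 3 had more Ptgs2 than Ptgs1, and the other 9 libraries had more Ptgs1 than Ptgs2, compared per kilobase of transcript on the log2 scale. Across the null sets Svs2, Svs5, Pate4, Akr1b7 and Crisp1 moved with Ptgs2, whereas Svs4, Svs3a and Svs3b ran opposite to it. Svs6, with means of 9.17 in null libraries 1 to 3 and 8.11 in null libraries 4 to 6, and Adam7, with 9.25 and 8.22, also moved with Ptgs2. The part of those tissues in the Ptgs2 difference was not tested.

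**Figure D3:**
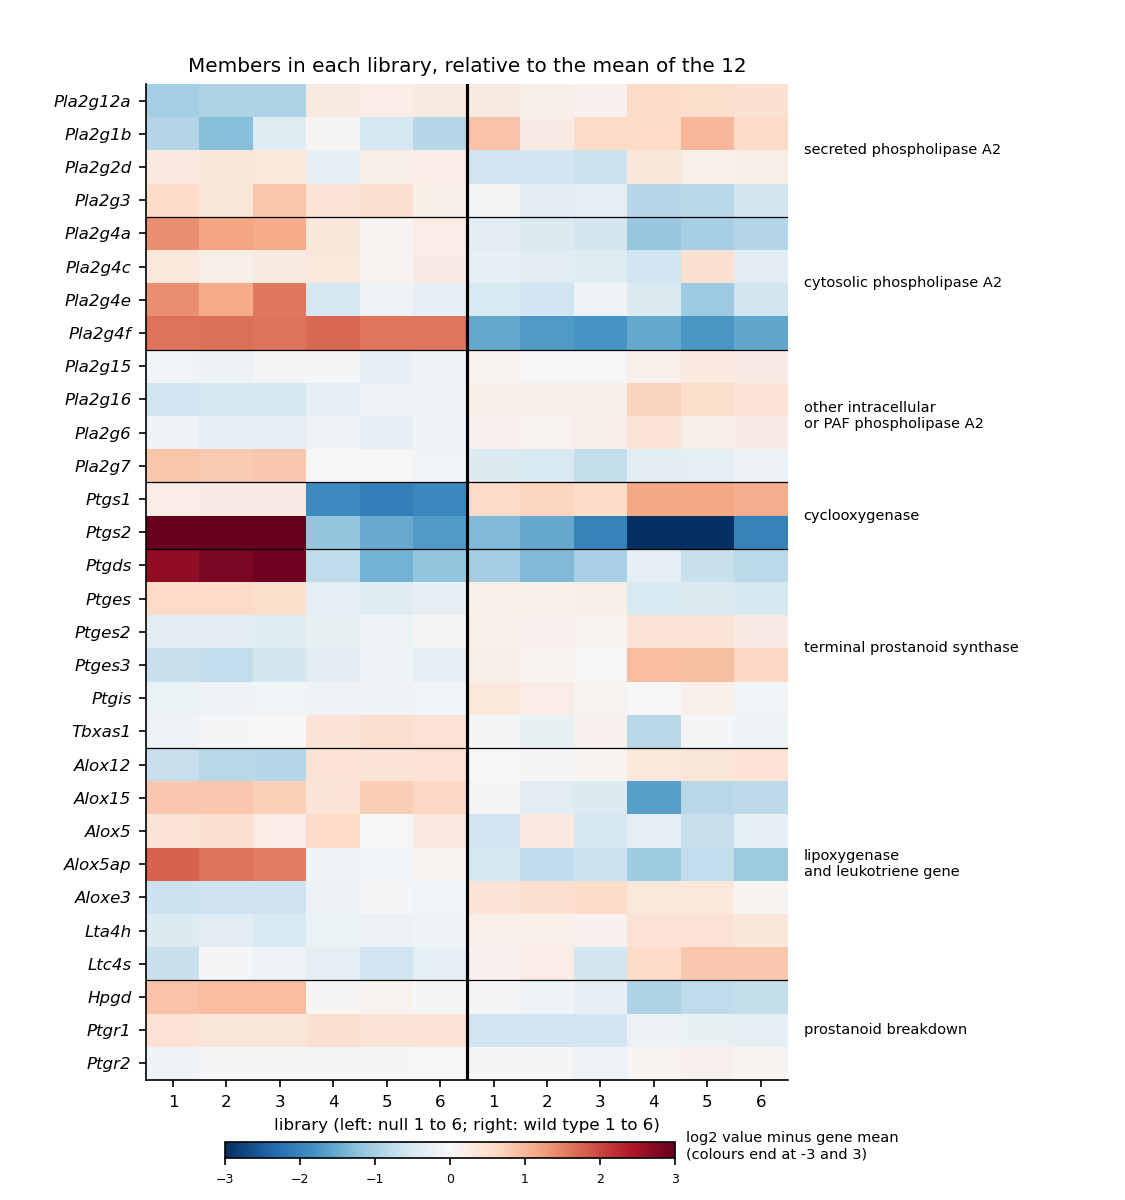
Log2 values of the 30 genes that passed the minimum, each less its mean over the 12 libraries, by role, with null libraries 1 to 6 left of wild-type libraries 1 to 6 and colours that end at -3 and 3. Ptgs2 and Ptgds are dark red in null libraries 1 to 3 alone, Ptgs1 is darkest blue in null libraries 4 to 6, and Pla2g4f is evenly red in all 6 null libraries.

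All 6 terminal prostanoid synthases passed the minimum, none was called higher, 3 were called lower and 3 were not called over the 12 libraries. Ptges, the inducible prostaglandin E synthase that works with Ptgs2, was the most abundant of the 30 genes per kilobase in wild type, at a log2 level per kilobase of 10.74 in the null and 10.45 in wild type; in the null, Hpgd alone stood above it. Its values were 12.99 to 13.07 in null libraries 1 to 3, with 12.11 to 12.22 in null libraries 4 to 6, against 12.60 to 12.64 in wild-type libraries 1 to 3 and 11.99 to 12.04 in wild-type libraries 4 to 6. The genotypes overlapped, and the difference of 0.29 was not called (adjusted p = 0.242). It was called, at 0.72, without null libraries 4 to 6 (adjusted p = 0.00359) and, at 0.60, with equal totals (adjusted p = 0.0215), and it was -0.14 without null libraries 1 to 3. Ptgds, the prostaglandin D synthase of the lipocalin family, had 8.05, 8.21 and 8.31 in null libraries 1 to 3 and 4.63, 3.98 and 4.20 in null libraries 4 to 6, against 4.35, 4.06 and 4.41 in wild-type libraries 1 to 3 and 5.12, 4.72 and 4.59 in wild-type libraries 4 to 6. As with Ptgs2, null libraries 1 to 3 were far above the rest. The difference of 1.69 was not called (SE 0.79, adjusted p = 0.0738), and it was 3.65 (adjusted p = 2.75e-07) without null libraries 4 to 6 and -0.28 without null libraries 1 to 3. Leaving out any 1 of null libraries 4, 5 and 6 also brought it past the threshold, with 2.01 to 2.14 (adjusted p = 0.0237 to 0.0426), as did equal totals (adjusted p = 0.0323) and removal of the length trend (adjusted p = 0.0479).

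Ptges3, a prostaglandin E synthase better known as the Hsp90 co-chaperone p23, had 9.71, 9.63 and 9.82 in null libraries 1 to 3 and 10.05, 10.25 and 10.09 in null libraries 4 to 6, against 10.56, 10.43 and 10.39 in wild-type libraries 1 to 3 and 11.31, 11.28 and 11.002 in wild-type libraries 4 to 6. The genotypes did not overlap (difference -0.90, SE 0.18; adjusted p = 0.000681 across the 12 libraries and 0.113 over the set means), and the difference was -0.54 without wild-type libraries 4 to 6. Its processed pseudogene Ptges3-ps was listed at 9.38 in the null and 9.62 in wild type, close to the level of the gene, so how reads were split between the copies is uncertain. Ptges2, the membrane-associated synthase, differed by -0.47 (SE 0.09, adjusted p = 0.000479), at 8.23 to 8.64 in the null, against 8.71 to 9.02 in wild type. Ptgis, the prostacyclin synthase of vessel and muscle cells, averaged 8.14 ± 0.05 in the null and 8.38 ± 0.14 in wild type (SD, n = 6 each), a difference of -0.23 that was called over the 12 libraries (adjusted p = 0.0143) and was 0.08 after scaling to equal totals. That call was also lost without null libraries 1 to 3 or wild-type libraries 1 to 3 (adjusted p = 0.0658 and 0.0981). Upper-quartile scaling (adjusted p = 0.0890) and testing without the minimum (adjusted p = 0.0502) ended it too. So did removal of the length trend (adjusted p = 0.619) and the set as a random block (adjusted p = 0.432). Tbxas1, the thromboxane synthase, averaged 6.28 ± 0.28 in the null and 5.90 ± 0.34 in wild type (SD, n = 6 each) and was not called (difference 0.38, adjusted p = 0.0738). It was called with equal totals (0.70, adjusted p = 0.00647), with upper-quartile scaling (0.46, adjusted p = 0.0366), without null libraries 1 to 3 (0.63, adjusted p = 0.0194) and without null library 1 (adjusted p = 0.0477). Tbxas1 overlaps Hipk2 on the opposite strand by 762 bases, and Hipk2 averaged 8.96 in the null and 7.18 in wild type.

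Of the 10 lipoxygenase and leukotriene genes, 7 passed the minimum, with 3 called higher, 3 lower and 1 not called across the 12 libraries and none over the set means. Alox5ap, the membrane protein that presents arachidonate to Alox5, had 9.24, 9.10 and 9.01 in null libraries 1 to 3 and 7.33, 7.39 and 7.56 in null libraries 4 to 6, against 6.94, 6.71 and 6.82 in wild-type libraries 1 to 3 and 6.41, 6.73 and 6.41 in wild-type libraries 4 to 6. Both null sets lay above wild type, with libraries 1 to 3 the highest. The difference was 1.60 (SE 0.35; adjusted p = 0.00131 across the 12 libraries and 0.12 over the set means), and 0.76 without null libraries 1 to 3. Alox15, a lipoxygenase of macrophages and eosinophils, had 6.61, 6.63 and 6.52 in null libraries 1 to 3 and 6.20, 6.54 and 6.44 in null libraries 4 to 6, against 5.74, 5.47 and 5.39 in wild-type libraries 1 to 3 and 4.18, 4.98 and 5.02 in wild-type libraries 4 to 6. The genotypes did not overlap, and the null sets were close to each other. The difference was 1.36 (SE 0.22; adjusted p = 0.000164 across the 12 libraries and 0.0925 over the set means), and 1.27 without null libraries 1 to 3.

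The genes that carry leukotriene synthesis forward did not share a direction. Alox5, the lipoxygenase that starts leukotriene synthesis, had 5.06 to 5.66 in the null, with a median of 5.40, against 4.35 to 5.34 in wild type, with a median of 4.66, and was called higher (difference 0.68, SE 0.18, adjusted p = 0.00446). Lta4h, the hydrolase that makes leukotriene B4, was called lower at 9.57 to 9.92 in the null, against 10.16 to 10.48 in wild type (difference -0.55, SE 0.08, adjusted p = 9.07e-05). Ltc4s, the synthase of the cysteinyl leukotrienes, was called lower near the floor at 3.79 to 4.41 in the null, against 3.91 to 5.27 in wild type (difference -0.67, SE 0.23, adjusted p = 0.0204). Genotypes overlapped for Alox5 and Ltc4s but not for Lta4h, and Ltc4s was no longer called without either null set or without wild-type libraries 4 to 6 (adjusted p = 0.0589 to 0.314). The Ltc4s call also ended with removal of the length trend (adjusted p = 0.207) and with the set as a random block (adjusted p = 0.448). That block ended the Alox5 call too (adjusted p = 0.428). Ltc4s overlaps the antisense gene Gm26542 on the opposite strand by 1664 bases, and the highest value of Gm26542 was 4.52. Reads of that overlap cannot be assigned, since strand use in counting is unknown. The summed mast cell markers, 5 of 7 of which passed, were 9.65 to 9.71 in null libraries 1 to 3, with 8.69 to 8.76 in null libraries 4 to 6, against 8.08 to 8.66 in wild type, and none of the 6 neutrophil markers passed. Of the 5, Kit differed most, with means of 8.52 in null libraries 1 to 3 and 6.86 in null libraries 4 to 6. In wild-type libraries 1 to 3 and 4 to 6 Kit averaged 5.97 and 5.50. By set means, Cpa3, Cma1 and Mcpt4 were higher in both null sets, and Tpsb2 in null libraries 1 to 3 alone. The part of mast cells and neutrophils in the values of Alox5, Alox5ap and Ltc4s was not tested.

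Alox12, the platelet-type enzyme, was the most abundant lipoxygenase per kilobase of transcript, at a log2 level of 8.42 in the null and 8.79 in wild type. It had 9.32 to 9.49 in null libraries 1 to 3, with 10.60 to 10.63 in null libraries 4 to 6, against 10.16 to 10.62 in wild type, so 1 null set lay below and the other at the top of the wild-type range. Alox12 was not called (difference -0.38, adjusted p = 0.204), and the difference was -0.99 (adjusted p = 3.19e-05) without null libraries 4 to 6 and 0.24 without null libraries 1 to 3. Of the 4 platelet markers, 2 passed, Itga2b and Pf4. The summed log2 level was 8.19 to 8.27 in null libraries 1 to 3, with 7.30 to 7.64 in null libraries 4 to 6, against 7.28 to 7.91 in wild type. Itga2b averaged 7.62 and 5.82 in those null sets, against 6.20 and 6.44 in wild type. Pf4 averaged 6.36 and 6.78, against 6.34 and 6.92. The part of platelets in the Alox12 values was not tested. Aloxe3, the epidermal hepoxilin synthase, had 6.33 to 6.93 in the null, against 7.05 to 7.54 in wild type, without overlap (difference -0.73, SE 0.14, adjusted p = 0.000621; -0.46 without null libraries 1 to 3). Alox8 and Alox12b did not pass the minimum, with highest values of 4.14 and 3.15.

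All 3 genes of prostanoid breakdown passed the minimum, with 2 called higher across the 12 libraries and 1 not called. Hpgd, the dehydrogenase that inactivates prostaglandins, had 12.17, 12.25 and 12.26 in null libraries 1 to 3 and 11.35, 11.43 and 11.26 in null libraries 4 to 6, against 11.26, 11.22 and 11.08 in wild-type libraries 1 to 3 and 10.40, 10.57 and 10.61 in wild-type libraries 4 to 6. The lowest null library lay just above the highest wild-type library. The difference was 0.93 (SE 0.22; adjusted p = 0.00254 across the 12 libraries and 0.145 over the set means) and was 0.49 (adjusted p = 0.0509) without null libraries 1 to 3 and 0.60 (adjusted p = 0.0703) without wild-type libraries 4 to 6. Ptgr1, the reductase of the next step, which also clears leukotriene B4, had 11.35 to 11.43 in the null, with a median of 11.37, against 10.37 to 10.80 in wild type, with a median of 10.56. All 6 null libraries lay together above wild type (difference 0.80, SE 0.08; adjusted p = 3.6e-06 across the 12 libraries and 0.0786 over the set means). Ptgr1 passed the set means, with an adjusted p of 0.0374, once the trend with transcript length was removed. Ptgr2, a reductase of the same step, averaged 9.77 ± 0.06 in the null and 9.81 ± 0.09 in wild type (SD, n = 6 each), a difference of -0.04 (SE 0.06) that was not called. With equal totals it was 0.27 and called higher (adjusted p = 0.00164).

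Ordered by level per kilobase, Hpgd (11.04), Ptges (10.74), Ptgr1 (10.18) and Pla2g12a (9.49) led in the null, and Ptges (10.45), Pla2g12a (10.20), Hpgd (10.11), Ptges3 (9.83) and Ptgs1 (9.78) led in wild type, on the log2 scale per kilobase of the longest annotated transcript. Pla2g4f held rank 6 of the 30 in the null, at 8.64, and rank 19 in wild type, at 5.35. Pla2g4e was the lowest of the 30 in the null at 2.84 and in wild type at 1.76.

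The sets of the null differed from each other by 1 or more in 8 of the 30 genes (26.7%), against 7.69% of all genes tested, and those of wild type in 1 of the 30 (3.33%), against 4.83%. The 8 were Ptgs2, Ptgds, Ptgs1, Alox5ap, Pla2g4e and Pla2g4a, which were higher in null libraries 1 to 3, and Alox12 and Pla2g12a, which were lower there. The null sets also differed in the markers of the seminal vesicle and ducts given above, and the part of those tissues in the 8 gaps was not tested.

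Receptors and other genes of the pathway were read from lists chosen with earlier results of these data known. Of 13 prostanoid and leukotriene receptors, 8 were tested, with 3 called higher and 1 lower over the 12 libraries, 1 called over the set means and a median difference of 0.40, against 0.05 over all genes. Ptger3, the inhibitory prostaglandin E receptor, fell by 2.60 (SE 0.16, adjusted p = 3.98e-08 over the 12 libraries; SE 0.29, adjusted p = 0.0115 over the set means). Its mean was 7.35 in null libraries 1 to 3 and 8.12 in null libraries 4 to 6, against 10.30 in wild-type libraries 1 to 3 and 10.37 in wild-type libraries 4 to 6, and no null library reached the wild-type range. Ptger4, a stimulatory prostaglandin E receptor, averaged 7.27 ± 0.13 in the null and 6.12 ± 0.39 in wild type (SD, n = 6 each), with an adjusted p of 6.13e-05 over the 12 libraries. Ptgir, the prostacyclin receptor, averaged 5.67 ± 0.18 in the null and 4.91 ± 0.31 in wild type (SD, n = 6 each), with an adjusted p of 0.00107 over the 12 libraries. Neither was called over the set means.

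Of 14 other eicosanoid enzymes and transporters, 13 were tested, with 8 called higher and 3 lower over the 12 libraries, 1 called over the set means and a median difference of 0.80. Alox5ap is among them and among the 41. Akr1b3, an aldose reductase that also makes prostaglandin F in mouse, fell by 1.94 (adjusted p = 1.91e-06 across the 12 libraries and 0.0278 over the set means). It had 9.40 to 10.16 in the null, against 11.35 to 12.16 in wild type, without overlap. Slco2a1, which carries prostaglandins into cells for breakdown, averaged 12.31 in null libraries 1 to 3 and 8.55 in null libraries 4 to 6, against 7.21 in wild type, and was called over the 12 libraries alone (difference 3.22, SE 0.75, adjusted p = 0.00223). Ephx2, the soluble epoxide hydrolase, averaged 8.56 in null libraries 1 to 3 and 4.92 in null libraries 4 to 6, against 4.28 in wild type, and was likewise called over the 12 libraries alone (difference 2.46, SE 0.73, adjusted p = 0.00996). For both, null libraries 1 to 3 were the high ones, as for Ptgs2.

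All 11 genes that release arachidonate or return it to membranes were tested, with 3 called higher, 1 lower and 7 not called over the 12 libraries, none over the set means, and a median difference of 0.08. Pla2r1, a receptor that binds secreted phospholipases A2, averaged 8.07 in null libraries 1 to 3 and 5.94 in null libraries 4 to 6, against 5.46 in wild type (difference 1.55, SE 0.44, adjusted p = 0.00783). Anxa1, the annexin that restrains cytosolic phospholipase A2, averaged 11.76 ± 0.25 in the null and 10.84 ± 0.25 in wild type (SD, n = 6 each), a difference of 0.92 (adjusted p = 6.14e-05). Mgll, the monoacylglycerol lipase, averaged 10.14 ± 0.90 in the null and 9.46 ± 0.08 in wild type (SD, n = 6 each) and was not called (adjusted p = 0.0822). Pla2r1 and Mgll were again highest in null libraries 1 to 3.

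**Figure D4:**
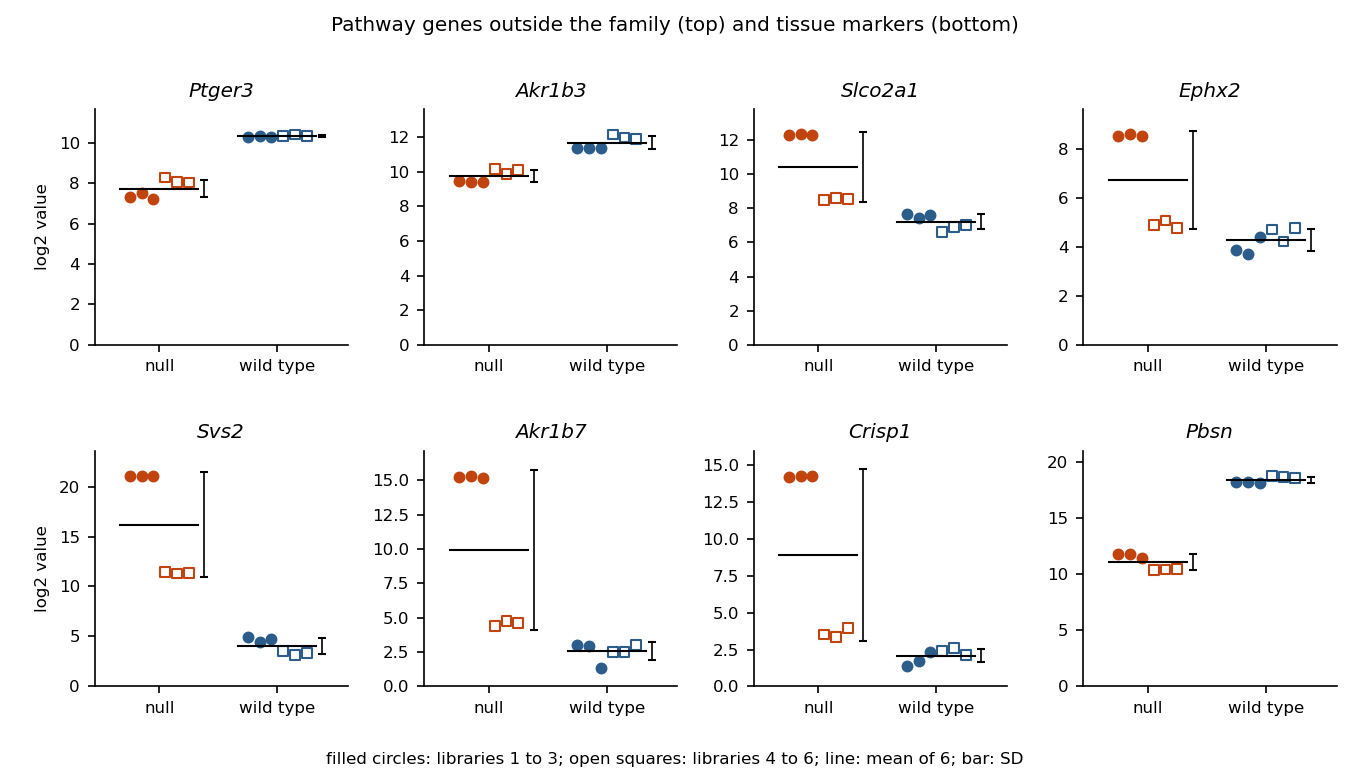
Log2 values of 4 pathway genes outside the family (top) and of 4 tissue markers (bottom), null left of wild type, with circles for libraries 1 to 3, squares for libraries 4 to 6, a line at the mean and a bar of 1 SD (n = 6). Ptger3 and Akr1b3 are lower in every null library, whereas Slco2a1 and Ephx2 are highest in null libraries 1 to 3, as are the seminal vesicle marker Svs2 and the duct markers Akr1b7 and Crisp1.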

How the data were processed

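Poly-A RNA was prepared with a TruSeq kit and sequenced on a HiSeq2000, per the labels' protocols. The submitters' processing notes name DESeq, Cufflinks, TopHat and CASAVA 1.8.2, and the builds GRCm38.p2 and mm9, without their roles. Strand use in counting and the treatment of reads with several matches are not given in the sources. The table deposited by the authors is on a log2 scale and normalized between libraries, and in it low values form a floor of unequal values (18491 genes with a mean under 2.5, median 1.98). On the linear scale, values were multiples of whole reads (within 0.1) for 96.6% to 99.3% of the high values but for 19.6% to 21.2% of lower ones, so reads could not be recovered for most genes. The planned count-based test was therefore replaced by limma.

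Symbols and lengths came from the GENCODE annotation of GRCm38, which named 96.2% of the IDs. Genes at 4 or more in 6 or more libraries were tested with limma 3.58.1 (trend, 2-sided) in R 4.3.3, with no further logarithm or pseudocount, and this scale compresses the differences of low genes. The set means are those of libraries 1 to 3 and 4 to 6 of each genotype, in accession order, sets that came from clustering in an earlier analysis and not from the labels. SEs are limma's moderated ones. Scripts were tested on simulated data without differences between sets, so that test does not bear on false calls over the 12 libraries. Marker sums are the log2 of summed linear values. Promoters came from RefSeq (GRCm38.p6). Python 3.11.15 was used for the rest.

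The members, the lists and the tests were chosen with earlier results of these data known. The naming rule was to give every tested member, in full for the 12 with the widest differences, and of other pathway genes those called over the set means and the 3 of each list with the widest difference. Akr1b7, Crisp1, Svs2, other single marker genes and Ptgs2os were named outside that rule, as were genes that overlap a member. Alternatives were other scalings, filters and thresholds, a random set block, removal of the length trend, and leaving out each library or set. The gene targeted in the null is not reported here.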

Additional observations from a re-analysis of the deposited data

Results flagged for a closer look

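In 3 of 60 gene and genotype groups of 6 libraries, 1 library lay far from the other 5 by Dixon's criterion. Its chance rate of about 1 of 20 groups holds for independent libraries. The libraries of a genotype formed sets, so the count cannot be read against that rate. Pla2g2d was at 6.27 in null library 4, against 6.70 to 6.84 in the other null libraries. Pla2g4c was at 5.41 in wild-type library 5, against 4.38 to 4.72 in the other wild-type libraries, and those 5 lay below every null library. Tbxas1 was at 5.26 in wild-type library 4, against 5.88 to 6.22 in the other wild-type libraries.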

How the results depend on the processing

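Leaving out each library in turn gave 23 to 25 genes called over the 12 libraries, 12 to 13 higher and 11 to 12 lower, and 1 called over the set means, 1 higher and 0 lower. With libraries scaled to equal totals, 6 were lower over the 12 libraries and 4 were called over the set means, all 4 higher (Pla2g4f, Pla2g4a, Alox15 and Ptgr1), where 2608 of all 16197 genes were lower over the 12 libraries and 1941 were called over the set means. Quantile normalization and removal of the length trend each gave 2 over the set means, both higher, where 4.74% and 5.12% of all genes were called. With the set as a random block, 12 were called, 7 higher and 5 lower, where 31.2% of all genes were called. The calls that ended with the block were those of Alox5, Alox15, Aloxe3, Ltc4s, Pla2g1b and Pla2g3. Those of Pla2g4c, Pla2g4e, Pla2g6, Pla2g15, Ptges2 and Ptgis ended as well. The other settings kept the counts within 1.5 times. Pla2g4f, Ptger3 and Akr1b3 kept their direction in each setting run and were called in all of them except, over the set means, Ptger3 and Akr1b3 at a threshold of 0.01. The alternatives for Ptger3 and Akr1b3 were added after their values were seen.

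Direction turned in these differences, and the cause was not tested. With equal totals, Pla2g15 was 0.0641, Ptgr2 0.271 and Ptgis 0.0808. Ptgr2 was 0.0331 with upper-quartile scaling and 0.0332 with quantile normalization, where Tbxas1 was -0.0164. Without null libraries 1 to 3, Alox12 was 0.24, Ptgr2 0.00715, Ptgds -0.28 and Ptges -0.14. Without wild-type libraries 1 to 3, Pla2g2d was -0.0390, and without wild-type libraries 4 to 6, Ptgr2 was 0.0184 and Ptges -0.0141. No paired analysis was possible because the labels give no replicate numbers.

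With 4 set means, only wide and even differences can pass. At the floor of the table a difference is compressed, which bears on low genes such as Ltc4s, Pla2g1b and Pla2g4e. The widest SEs over the 12 libraries were those of Ptgs2 (1.46), Ptgds (0.79) and Ptgs1 (0.45), whose null sets lay far apart.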

Other observations

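Marker sums of tissues in which some of these enzymes are known to be made were read beside them, in log2 units, and their part in the values of those enzymes was not tested. The 5 smooth muscle markers summed to 16.03 to 16.62 in the null, against 16.40 to 16.72 in wild type, and the 4 endothelial markers to 10.54 to 11.17 in the null, against 9.58 to 9.95 in wild type. Ptgis, the prostacyclin synthase of these cell types, had 8.05 to 8.18 in the null, against 8.18 to 8.57 in wild type. Of the 5 cornified epidermis markers listed, 4 were in the deposited table and 3 passed the minimum. They summed to 7.30 to 7.81 in the null, against 7.17 to 7.66 in wild type, and did not share a direction. By set means, Krt10 was lower in the null (5.63 and 6.12, against 6.30 and 6.67). Lor was higher (6.02 and 6.35, against 4.79 and 5.09), as was Krt1 by a narrow margin (5.64 and 5.79, against 5.17 and 5.61). Aloxe3, an epidermal enzyme, was well above the floor in all 12 libraries.

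Ptges3l, a gene that resembles Ptges3 and was outside the rule, averaged 6.37 in the null and 6.16 in wild type. Ptgs2os2, another transcript annotated near Ptgs2, averaged 2.78 in the null and 2.27 in wild type, at the floor of the table, whereas Ptgs2os stood at 6.14, 6.06 and 5.86 in null libraries 1 to 3.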
